A study of Danio rerio with 2 samples.

Results

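The proteasome subunit genes of zebrafish were compared between Cldnk:GFP-positive cells of rraga mutant larvae and those of wild type larvae. Members were the genes of the authors' deposited table whose name begins with psm, a letter from a to g and a digit, and whose expression level was above 0. Of 54 such names among the 34326 genes of the table, 53 qualified and 1, psmb13a, was listed at 0. The rule used names and detection, not differences, though it was set with earlier results of these data known.

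Both groups were larvae of the TL (Tupfel long fin) strain at 5 days post fertilization. In both, oligodendrocytes, which wrap axons of the brain and spinal cord in myelin, were sorted by flow cytometry for GFP under the Cldnk promoter, and their total RNA was sequenced. The mutant larvae carried a mutation in rraga, which encodes RagA, a small GTPase that works with Ragulator at the lysosome, and the controls were wild type. The labels name neither the rraga allele nor how many larvae were pooled. There was 1 record per genotype, and each merged 2 independent biological replicates per the labels. The deposited table holds the authors' comparison only, so no value per replicate or per genotype can be shown.

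For each gene the table gives a log2 fold of mutant over wild type, p-values and a level, which is the higher of the genotype means. By the table's title, a positive fold means a higher value in the mutant cells. The unit of the level is not named, and it is not known whether it is scaled to transcript length, so levels are given here only to show how much signal stands behind a fold. The threshold for a changed gene was an FDR adjusted p, as the authors give it, under 0.05. Each fold and p also gave a standard error on the assumption of a normal test, and whether it carries the spread between replicates is not known.

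The proteasome is the main protease of the cytosol and nucleus and degrades proteins tagged with ubiquitin. Its barrel, the 20S core, is a stack of rings of alpha (psma) and beta (psmb) subunits with the cutting sites inside. The 19S regulatory particle caps the barrel: an ATPase ring (psmc) unfolds the substrate, and non-ATPase subunits (psmd) bind ubiquitin and remove it. Lysosomes, on whose surface RagA acts, are the other large route of protein breakdown in a cell.

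No proteasome gene passed the authors' test. Of the 53 members, 0 had an FDR adjusted p under 0.05, where 0.221% of the 25757 genes tested were called. At an unadjusted p under 0.05 the count was again 0, where 9.66% of all genes passed, and the smallest unadjusted p among the members was 0.0642. All the same, 48 of the 53 had a log2 fold above 0, against 51.0% of all genes tested and 62.3% of the genes of level 10 or more. The median log2 fold of the members was 0.46, or 1.38-fold, while the median was 0.02 over all genes tested and 0.15 over genes of level 10 or more. With that second median subtracted, the members' median was 0.31. Adjusted only over the genes of level 10 or more, 0 of the 43 members of that level passed, where 1.95% of such genes did. In bulk RNA of this kind, more or fewer cells of a type and more or less RNA per cell cannot be told apart.

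The constitutive subunits formed a narrow band. All 16 constitutive 20S genes and all 19 genes of 19S subunits had positive folds, and 34 of these 35 had a level of 10 or more, psma6l being the exception. Among those 34 the log2 folds ran from 0.14 to 0.86, which is 1.102-fold to 1.81-fold, with an SD of 0.17 across genes. Their median derived standard error was 0.55, so the scatter across these subunits was smaller than the error derived for a typical one of them. At level 30 or more there were 37 members, none of them an activator, inhibitor or inducible beta gene, and their SD across genes was 0.24, against 0.83 over all 2660 genes of that level. Members are not replicates of a condition, and they share the same libraries, so this evenness describes the genes and is no test of the genotype. It is not particular to the proteasome, since some other complexes were about as even, as given under Other observations.

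**Figure D1:**
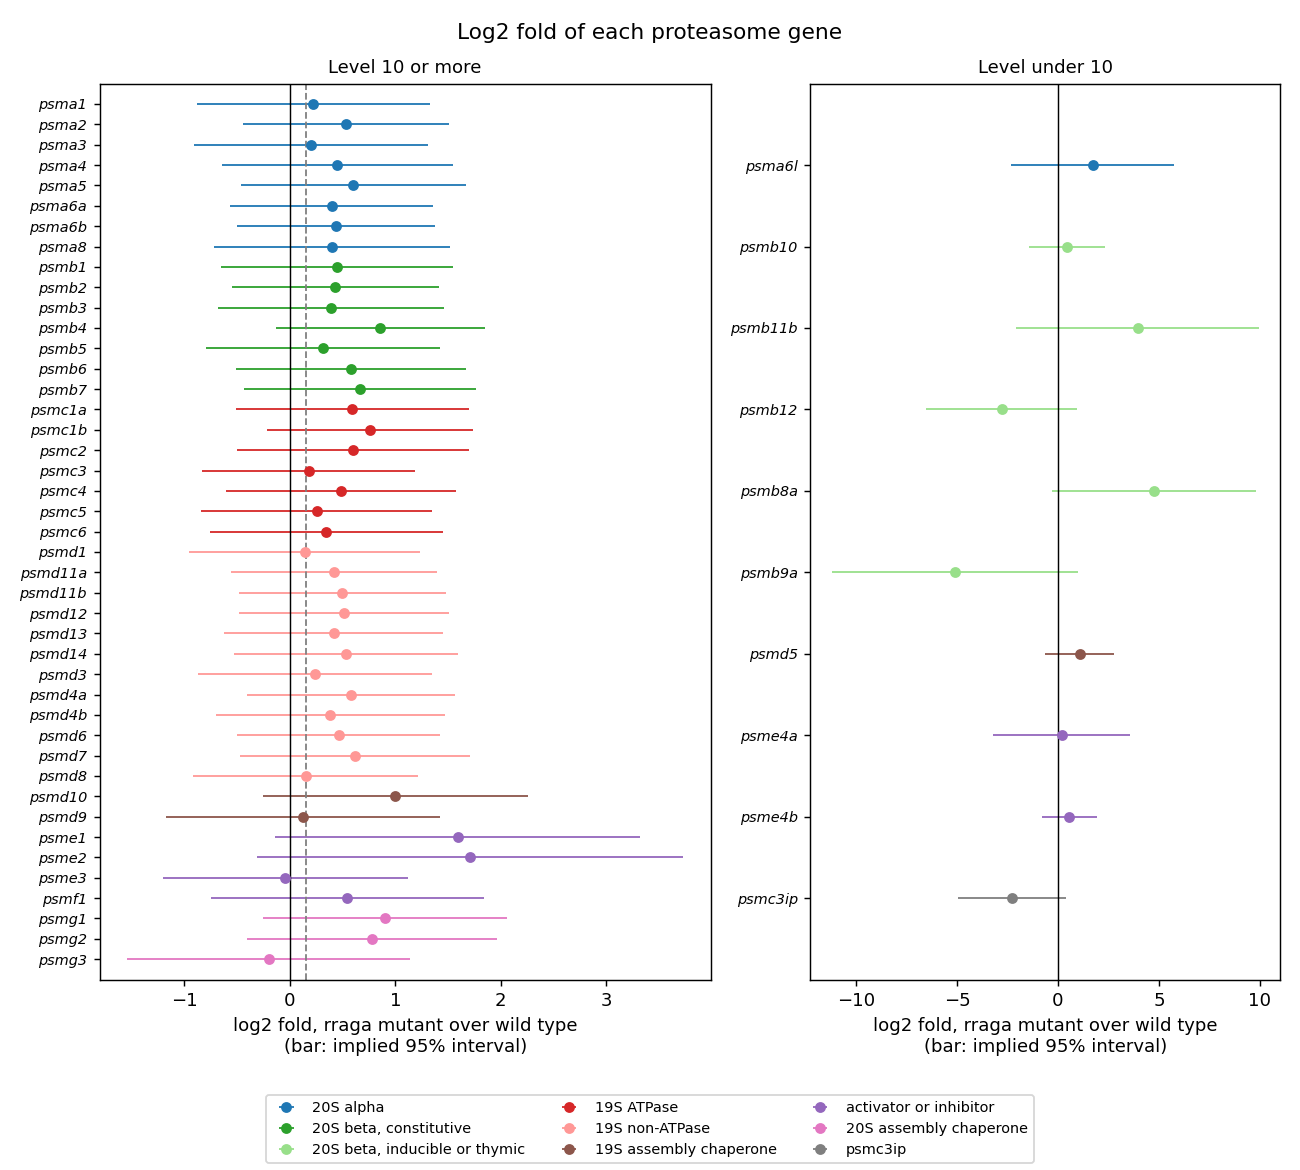
Each row is 1 of the 53 proteasome genes, and each point is its log2 fold of rraga mutant over wild type from the authors' deposited table, with a bar for the derived 95% interval and a colour for its role. The left panel holds the 43 members of level 10 or more, with a dashed line at 0.15, the median of all genes of that level, and the right panel the 10 members under level 10 on a wider axis. All 53 intervals include 0, which follows from their derivation because no member had an unadjusted p under 0.05. The constitutive 20S and 19S subunits of the left panel stand in a column between 0.14 and 0.86.

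The alpha subunits form the outer rings of the barrel and gate the entrance for substrates. Their 9 genes had a median log2 fold of 0.44. The values were 0.22 for psma1, 0.53 for psma2, 0.20 for psma3, 0.45 for psma4 and 0.60 for psma5 in the authors' deposited table. psma8 had 0.40 and the paralogs psma6a and psma6b had 0.40 and 0.44 in the authors' deposited table. Apart from them stood psma6l, a weakly detected relative of psma6 with a level of 1.63, whose fold in the authors' deposited table was 1.73 with a derived standard error of 2.06. The highest level among the alpha genes was that of psma3, at 339.

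The 7 constitutive beta genes had a median of 0.45 and levels from 95.4 to 503. Those that carry the cutting sites are psmb5 with chymotrypsin-like, psmb6 with caspase-like and psmb7 with trypsin-like activity, as known from mammals. Their log2 folds were 0.31 (p = 0.581), 0.58 (p = 0.295) and 0.67 (p = 0.237) by the authors' deposited table. psmb7 (ENSDARG00000037962, chromosome 21, 8249235 to 8259556, GRCz11) also had the highest level of all members, 503. Of the noncatalytic beta genes, psmb4 had the highest fold among constitutive 20S genes of level 10 or more, at 0.86 (p = 0.0905, FDR adjusted p = 0.765) in the authors' deposited table. The others, psmb1, psmb2 and psmb3, lay at 0.45, 0.43 and 0.39 in the authors' deposited table.

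Vertebrates also have inducible beta subunits, which interferon signalling brings into the barrel in place of the constitutive cutting subunits, giving the immunoproteasome. The levels of these genes were far under those of the constitutive beta genes: 0.593 for psmb8a, 0.115 for psmb9a, 1.84 for psmb12 and 7.05 for psmb10. psmb11b, a relative of a subunit of the mammalian thymus, had a level of 0.0368, and psmb13a was listed at 0. The log2 folds pointed both ways, with 4.76 for psmb8a (p = 0.0642), 3.95 for psmb11b (p = 0.199), 0.46 for psmb10 (p = 0.631), -2.79 for psmb12 (p = 0.143) and -5.10 for psmb9a (p = 0.102) by the authors' deposited table. Derived standard errors ran from 0.97 for psmb10 to 3.12 for psmb9a. Every one of the derived 95% intervals included 0, which restates these p-values. psmb8a, psmb13a, psmb12 and psmb9a lie together on chromosome 19 of GRCz11, between 7186913 and 7225660. The antigen presentation gene mhc1uba lies beside them and tap2a within that stretch. The annotated spans of psmb8a (7186913 to 7225623) and psmb13a (7192854 to 7225660) overlap over 32770 bases on the minus strand. On the plus strand, psmb12 (7196298 to 7200531), psmb9a (7201455 to 7203448) and tap2a (7205412 to 7213390) lie within them. Whether counting used strand is not given, so how reads were divided among these overlapping genes is uncertain.

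**Figure D2:**
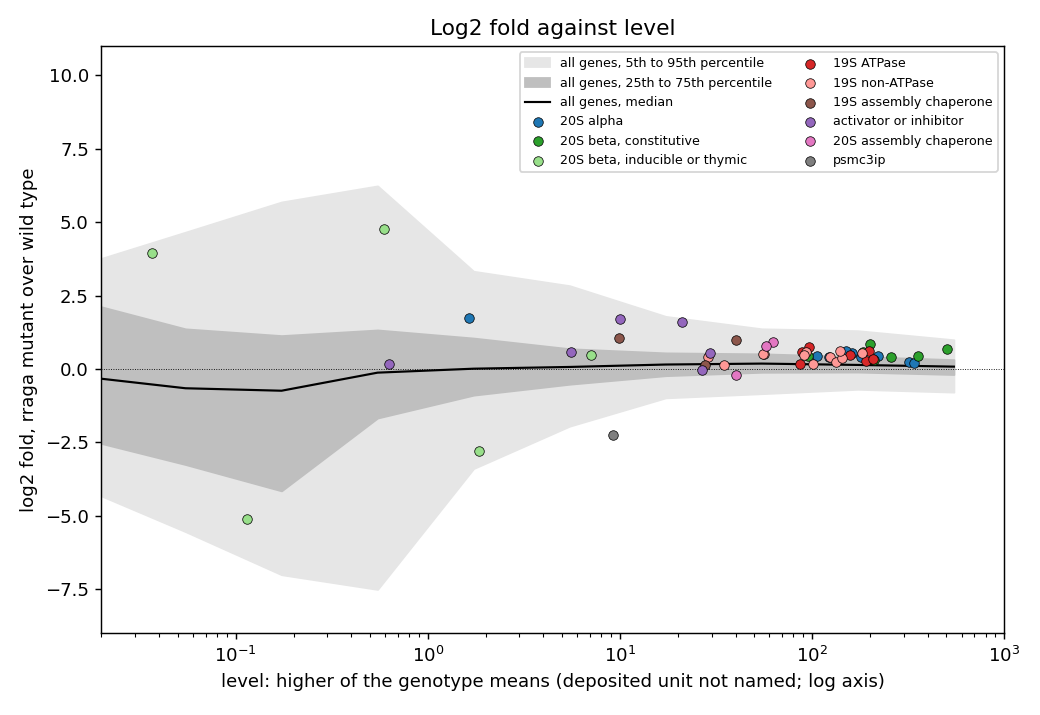
The horizontal log axis gives the level, in the deposited unit that is not named, and the vertical axis the log2 fold of rraga mutant over wild type. Coloured points are the proteasome genes by role, the black line is the median of all genes in classes of level, and the grey bands run from their 25th to 75th and 5th to 95th percentiles. The constitutive subunits other than psma6l sit at high levels, most of them above the median line, while psmb8a (4.76) and psmb9a (-5.10) sit at low levels, where the bands are widest.

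In the regulatory particle the ATPases form the ring that unfolds substrates and threads them into the core. Their 7 genes had a median log2 fold of 0.49, with the extremes at psmc1b (0.76, p = 0.126) and psmc3 (0.18, p = 0.728) in the authors' deposited table. psmc2 had 0.60, psmc4 0.49, psmc5 0.26 and psmc6 0.34 in the authors' deposited table. psmc6 had the highest level of the ring, 208. The pattern on names also took psmc3ip, which encodes a partner protein in meiotic recombination and no proteasome subunit. Its fold was -2.26 at a level of 9.24 (p = 0.0984) by the authors' deposited table, and it was the 1 gene named psmc or psmd with a negative fold.

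The 12 non-ATPase subunit genes had a median of 0.44 and ran from 0.14 for psmd1, a scaffold of the base, to 0.62 for psmd7 in the authors' deposited table. psmd7 pairs with psmd14, the enzyme that cuts ubiquitin chains off the substrate, which had 0.53 and the highest level of the group, 183, in the authors' deposited table. The 9 genes of the lid, the part of the cap that holds psmd7 and psmd14, had a median of 0.46 and a range of 0.15 to 0.62. The ubiquitin receptor gene psmd4 is present as psmd4a and psmd4b, with 0.58 and 0.38 in the authors' deposited table. psmd2 was not analysed here.

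Duplicated subunit genes had folds that differed by less than the derived error. In the authors' deposited table psma6a minus psma6b was -0.04 on the log2 scale, psmc1a minus psmc1b -0.17, psmd11a minus psmd11b -0.08 and psmd4a minus psmd4b 0.20. The derived standard errors of these differences were 0.69, 0.75, 0.71 and 0.75. They take the copies as independent, although both come from the same libraries. psmd11a and psmd11b themselves had 0.42 and 0.50, and psmc1a had 0.59, in the authors' deposited table. Paralogs are similar copies, so how reads were divided between them is uncertain.

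The core and the regulatory particle had nearly the same median. The median log2 fold was 0.45 over the 21 genes named psma or psmb and 0.46 over the 23 named psmc or psmd, a difference of -0.01. With means in place of medians the order was the other way, 0.47 for the core and 0.35 for the regulatory particle. Without psmc3ip, the inducible beta genes and the assembly chaperones named psmd, the medians were 0.44 and 0.46. No test was made between these lists, because their genes share the same libraries.

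Among members of level 10 or more, the highest folds were those of psme2, psme1, psmd10 and psmg1, genes that activate or help to build the particle, and none of them passed the threshold. psme1 and psme2 encode the alpha and beta subunits of the interferon-inducible activator that opens the barrel without ubiquitin, and lie on chromosome 24 (12801384 to 12810063) and chromosome 12 (13280829 to 13293677) of GRCz11. They had log2 folds of 1.59 (level 21.1, p = 0.0713, FDR adjusted p = 0.724) and 1.71 (level 10.03, p = 0.0972, FDR adjusted p = 0.786) in the authors' deposited table. Their levels are those of the mutant, 3.01-fold and 3.27-fold above the wild type. Going by these folds, both reached level 10 only through the mutant mean, so their place in this ranking depends on the filter. The nuclear activator gene psme3 had -0.04, and psme4a and psme4b, which encode a large single-chain activator, had 0.18 and 0.56 (levels 0.627 and 5.54), in the authors' deposited table. psmf1, known as an inhibitor of the core in mammals, had 0.55 at level 29.5 in the authors' deposited table.

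Among the assembly chaperones of the core, psmg1 and psmg2, which act as a pair, had 0.90 (p = 0.127) and 0.78 (p = 0.197), and psmg3 had -0.20 (p = 0.769) by the authors' deposited table. Chaperones of the 19S base carry psmd names but leave the finished particle. Of these, psmd5 had 1.07 at a level of 9.93, psmd10 had 1.002 at a level of 40.4 and psmd9 had 0.13 at level 27.6 in the authors' deposited table. psmd10 was the 1 member on chromosome 14, which also holds rraga, and lies 14.4 Mb from it. Counting by size alone, 7 of the 53 members had a log2 fold of 1 or more, where 22.4% of all genes did, and 3 had -1 or less, where 24.2% did. Of these 10, psme1, psme2 and psmd10 had a level of 10 or more, which is 3 of 43 members of that level, where 10.9% of genes had a log2 fold of 1 or more. Since psme1 and psme2 reached that level only through the mutant mean, this count depends on the filter.

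Because the proteasome works with other proteins, a list of 40 measured genes for ubiquitin, its enzymes and partners of the proteasome was examined in the same way. None passed the authors' threshold, 29 were higher in the mutant and 11 lower, where 51.0% of all genes were higher, and the median log2 fold was 0.23. Among its genes of high level, pomp, the maturation factor of the core, had 0.64 and the polyubiquitin gene ubb had 0.67 in the authors' deposited table. Chosen after their values were seen, vcp, the segregase that feeds substrates to the proteasome, had 0.55, and the deubiquitinases of the cap usp14 and uchl5 had 0.58 and -0.81, in the authors' deposited table. nfe2l1a and nfe2l1b are paralogs of the mammalian factor that induces proteasome genes when proteasome activity is short. nfe2l1a, also chosen after its value was seen, was the 1 gene of the list with an unadjusted p under 0.05, with 4.62 at a level of 3.47 (p = 0.00134, FDR adjusted p = 0.248), in the authors' deposited table. nfe2l1b had 0.03 at level 5.09 in the authors' deposited table.

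Most genes on a list of heat shock proteins and chaperones are cytosolic and handle the unfolded proteins that the proteasome also receives. Exceptions on it are hspd1 and hspe1, which encode mitochondrial chaperonins. The list had 4 of 34 members past the threshold, all higher, where 0.221% of all genes passed in either direction. All were inducible hsp70 genes: hsp70.1 rose by 3.06 on the log2 scale, hsp70.2 by 2.96, hsp70.3 by 3.05 and hsp70l by 2.36, in the authors' deposited table. Reads may be shared among these similar copies, which makes each value uncertain. The list's median was nevertheless 0.29, and its genes of highest level, hspa8, hsp90ab1 and cct4, had 0.02, -0.11 and 0.15 in the authors' deposited table.

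Since psme1, psme2 and the inducible beta genes respond to interferon in vertebrates, genes of antigen processing and interferon response were set beside them. Of 30 measured, 1 passed the threshold, where 0.221% of all genes did. This was isg15, a ubiquitin-like modifier induced by interferon, which rose by 3.93 on the log2 scale at a level of 62.3 (FDR adjusted p = 9.89e-05) in the authors' deposited table. The median of the list was 0.39, with 19 higher and 11 lower, where 51.0% of all genes were higher. Its genes of highest level, pdia3, mhc1zba and b2ml, had -0.27, 0.87 and 0.35 in the authors' deposited table. mxa, mxb and ifit8 of the same list were listed at 0.

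Lysosomal genes lay further from 0 than the proteasome genes. Of 64 genes on 3 lists, 53 were higher in the mutant, where 51.0% of all genes and 62.3% of those of level 10 or more were. Their median log2 fold was 1.13, and 3 passed the threshold, where 0.221% of all genes did. The 27 genes of the v-ATPase, the proton pump of the lysosome, had a median of 1.16 with 0 past the threshold, and the 16 cathepsin genes, lysosomal proteases, had 1.63 with 2 past it. These were ctsk and ctsa, which rose by 2.51 and 2.29 on the log2 scale in the authors' deposited table. Among 21 other genes, listed as lysosomal, the median was 0.73 and 1 passed. That was sqstm1, an autophagy receptor gene rather than one of the lysosome itself. It rose by 2.63 on the log2 scale in the authors' deposited table. At an unadjusted p under 0.05 there were 28 of the 64 lysosomal genes, beside 0 of the 53 proteasome genes and 9.66% of all genes. Of the 46 lysosomal genes of level 10 or more, 30 had a log2 fold above 0.86, the highest value of any 20S or 19S subunit of that level. Going by their folds, some of the 30, such as ctsc (level 16.6, 3.40-fold) and tpp1 (level 23.7, 3.86-fold), reached level 10 only through the mutant mean. That count therefore depends in part on the filter. No test was made of the difference between the lists, whose genes come from the same libraries.

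**Figure D3:**
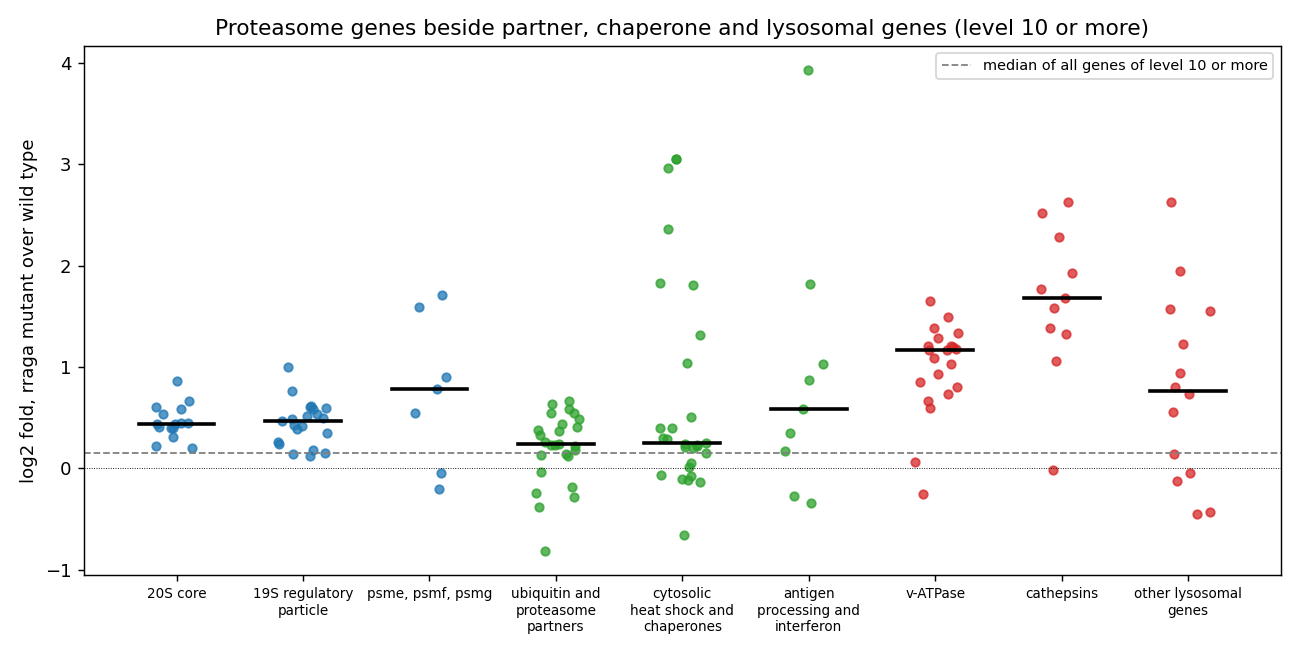
Each point is 1 gene of level 10 or more, its height is the log2 fold of rraga mutant over wild type from the authors' deposited table, and the black bar is the median of its list. Blue marks proteasome genes, green their partner, chaperone and interferon lists, red the lysosomal lists, and the dashed line the median of all genes of level 10 or more (0.15). The 20S and 19S genes cluster near 0.44 and 0.46, while most v-ATPase and cathepsin genes lie above 0.86. Some points of high fold reached level 10 only through the mutant mean.

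For rraga itself the log2 fold in the authors' deposited table was 0.44 (level 33.1, p = 0.477), which is no check of the labels because a mutant transcript may still be made. In all, 34 genes were higher and 23 lower at the authors' threshold. The cells were sorted by GFP under the Cldnk promoter, and myelin genes were present, with mbpa at a level of 5321. Of 24 myelin and oligodendrocyte genes, 21 had a level of 10 or more. Of 34 genes of digestive organs and liver, 33 also had a level of 10 or more, and apoa2 had the highest, 23441.5. Summed over genes, the digestive and liver list held 17.6% of the level of all genes. The myelin and oligodendrocyte list held 2.74%. The level is the higher genotype mean in an unnamed unit, so neither share is that of 1 genotype. The marker lists differed in direction: 6 of 34 digestive and liver genes were higher in the mutant (median -0.57), 12 of 18 erythrocyte genes (median 1.17), 15 of 28 macrophage and microglia genes (median 0.12) and 10 of 24 myelin and oligodendrocyte genes (median -0.41). Of the 24 myelin and oligodendrocyte genes, 2 passed the authors' threshold, 1 higher and 1 lower, where 0.221% of all genes did. Of the 18 erythrocyte genes 1 passed, higher, and of the digestive and the macrophage genes 0 did. At level 10 or more the macrophage median was 1.55 over 7 genes. That is the value of hexb, a lysosomal enzyme gene that the lysosomal lists hold as well, and none of the 7 passed the threshold. In the authors' deposited table lgmn, mfap4 and slc7a7 had 1.92, 2.60 and 1.79, and apoc1, coro1a and lcp1 had -0.26, 0.08 and -0.22. Going by their folds, mfap4 (level 27.7, 6.07-fold) and slc7a7 (level 14.2, 3.47-fold) reached level 10 only through the mutant mean. The macrophage median at that level therefore depends on the filter. c1qa of the macrophage list was listed at 0. Summed levels for each genotype cannot be had from the table, and the part of these other cells in the proteasome values was not tested.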

How the data were processed

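RNA sequencing of sorted Cldnk:GFP-positive cells gave 1 table of the authors' own comparison, mutant against control. The level was deposited as a normalized expression signal, the higher of the genotype means per the file headers. The log2 fold, signed linear fold, p-value, FDR p-value and Bonferroni p-value are also the authors', and 8569 genes of level 0 hold a spreadsheet error in them. Per the submitters' processing notes the build was GRCz11. Not given in the sources used here are the aligner, the annotation release, the normalization and the statistical method. The depth per sample is unknown. The authors' FDR p-value matched a Benjamini-Hochberg adjustment over 34326 genes in which genes lacking a p counted as 1, with a largest difference of 1.28e-04.

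From these values, standard errors were derived from the absolute log2 fold and the normal deviate matching its p-value, as their ratio, and p-values were adjusted again over subsets of genes (Python 3.11.15, pandas 2.3.3, scipy 1.17.1; both steps were tested on simulated data). Lists were matched by name, by name pattern or by Ensembl identifier, and 25 of 282 listed names were not found. Members and lists were chosen with earlier results of these data known. Named genes were those at the extremes of fold or of highest level in each role, the catalytic and inducible beta genes, paralog pairs and, in other lists, genes past the threshold and the 3 of highest level. For 1 gene that this rule takes, the result is not reported here. Most other members are given too, outside that rule. No model could be fitted again without values per replicate.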

Additional observations from a re-analysis of the deposited data

How the results depend on the processing

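The count of called proteasome genes was 0 under each of the 6 other rules tried. These were FDR p under 0.01, adjustment over genes with a p only, Bonferroni p and unadjusted p, each for 53 members, and adjustment over genes of level 1 or more (49 members tested) or of level 10 or more (43 tested). The lowest adjusted p of any member was 0.687 when only genes of level 10 or more were adjusted, and 0.527 when genes with a p were. A member of level 30 or more with the median derived error of 0.56 would have needed a 4.60-fold difference to pass, and members with smaller errors somewhat less. The members' median lay between 0.45 and 0.46 under the other choices and at 0.31 after centring. The difference of core minus regulatory particle stayed between -0.05 and -0.01, except with means, where it was 0.12. For the 64 lysosomal genes the 3 calls were 1 at FDR p under 0.01, which was sqstm1, 0 by Bonferroni and 28 unadjusted. For the 34 chaperone genes the 4 calls were 2 at FDR p under 0.01, 2 by Bonferroni and 8 unadjusted. Unadjusted, 1 of 40 ubiquitin and proteasome partner genes and 2 of 30 antigen processing and interferon genes passed. Beside all of these unadjusted counts, 9.66% of all genes tested had an unadjusted p under 0.05. Filters on level are not independent of the fold, since the level is the higher genotype mean. No paired analysis was possible because the table holds no value per replicate, and for the same reason leaving out a replicate was not run.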

Other observations

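The lid of the 19S particle shares its architecture with the COP9 signalosome, which removes the Nedd8 tag from ubiquitin ligases, and with the translation initiation factor eIF3. Lists for both were added after the proteasome values were known. The 7 measured signalosome genes all had positive log2 folds, with a median of 0.28, and the 16 eIF3 genes had a median of 0.09, with 12 higher and 4 lower. None passed the authors' threshold, where 0.221% of all genes did. The 8 genes of the cytosolic chaperonin CCT, another multi-subunit ring, had a median of 0.20, with 5 higher and 3 lower. Of all genes tested 51.0% were higher (median 0.02), and of those of level 10 or more 62.3% were (median 0.15). The SD of log2 folds across genes was 0.17 for the signalosome and 0.21 for CCT, beside 0.17 for the 34 proteasome subunits of level 10 or more. For the 14 eIF3 genes of that level it was 0.52, with eif3hb at 1.88 (level 13.0, 3.68-fold) in the authors' deposited table. The others of the 14 ran from -0.22 to 0.50. Going by its fold, eif3hb reached level 10 only through the mutant mean, so the SD for eIF3 depends on the filter.

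A few genes lie outside the name pattern but are assigned to proteasome families by a separate table of gene names or by a name in capitals. si:rp71-45k5.4, given as a second copy of PSMA2, showed 0.42 on the log2 scale (level 40.9), and PSMG4 showed 0.13 (level 23.6), in the authors' deposited table. fam192a, given as PSME3IP1, showed 0.54 (level 17.4) in the authors' deposited table, and FP015916.2, given as PSMB11, was listed at 0.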
